A study of Mus musculus with 8 samples.

Results

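The synaptic vesicle fusion machinery was examined in neurons of the mouse temporal association cortex (TeA) that had been labelled by activity. Its members were the 87 of 15437 genes in the count table whose symbols belong to the synaptotagmin (Syt), syntaxin (Stx), syntaxin-binding protein (Stxbp), SNAP, VAMP, synapsin (Syn), complexin (Cplx), SV2, Rab3, synaptophysin (Syp), Munc13 (Unc13), RIM (Rims) and Doc2 families. The choice went by symbol alone and used no measured value. It also took in 16 genes that share only the letters of a name, namely the clathrin adaptor Snap91, the Rab3 regulators Rab3gap1, Rab3gap2, Rab3il1 and Rab3ip, and Rab GTPases numbered in the thirties. These 16 are described apart.

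The study asked which genes mark neurons activated in the TeA by fear conditioning (FC), in which a tone is paired with a footshock. All mice were male C57BL/6 of genotype Arc-dVenus +/-, aged 60 to 90 days, and carried a destabilized Venus reporter driven by the promoter of the activity-regulated gene Arc. They were killed 6 h after 7 tone and shock pairings at 0.5 mA (FC) or after 7 shocks of the same strength with no tone (shock-only). RNA was sequenced from 5 pools of fluorescent cells aspirated by hand after protease treatment and trituration (3 FC and 2 shock-only, called Arc-dVenus+ pools below) and from 3 bulk-tissue samples of the same cortex (1 FC and 2 shock-only). The numbers in the titles, 39, 40 and 23 for FC pools 1 to 3 and 30 and 33 for shock-only pools 1 and 2, are the cells per pool by the study's own legend, whereas the labelled protocol gives a higher range. The reporter marks cells with recent activity of the Arc promoter and not a cell type, so a pool is a mixture of whichever neurons lit up. Reporter-negative neurons were not collected, so bulk tissue, which also holds glia, vessels and other neurons, is the only comparison.

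Fusion of a synaptic vesicle is driven by SNARE proteins, of which the vesicle carries one kind (VAMP) and the plasma membrane the others (syntaxin and SNAP-25), and which zip together to pull both membranes into contact. Munc13 and RIM prepare the vesicle, complexin holds the assembled SNAREs, and synaptotagmin triggers fusion when calcium enters. Synapsins tether the reserve of vesicles, and SV2 and synaptophysin are membrane proteins of the vesicle itself. Most of these families have several paralogs, each used by its own kinds of neuron or in other membrane traffic of the cell.

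The 5 Arc-dVenus+ libraries held 10223586 to 24151755 counts and the 3 bulk libraries 7110598 to 9846374, with 1500 to 2631 against 108 to 131 of the 15437 genes at 0. Levels are given as CPM, the count divided by the library total and scaled to 1000000. Fold changes come from the quasi-likelihood test of edgeR after TMM scaling. Beside the plain CPM, this scaling raises the Arc-dVenus+ pools relative to bulk tissue by 0.26 (log2) in the mean. A gene is called higher or lower at an adjusted p under 0.05 over the 12493 genes that reached 20 CPM summed across libraries. The pools carried the markers of excitatory neurons, with 5 of 8 higher and 1 (Camk2a) lower. Their summed level was lower, at 6301 to 8005 CPM against 8015 to 8995 CPM in bulk tissue. That sum was dominated by Camk2a, at a mean of 3565 CPM in the pools against 6385 CPM in bulk tissue. The other 7 markers all had positive log2 fold changes. All 10 markers of inhibitory neurons were lower, with a summed level of 34.1 to 43.4 CPM in the pools against 755 to 767 CPM in bulk tissue, Dlx1 at 0 and Slc32a1 at 2 counts in all. Summed astrocyte markers were at 77.2 to 142 CPM against 2190 to 2376 CPM (5 of 6 lower), oligodendrocyte markers at 26.0 to 73.6 against 299 to 325 CPM (3 of 3 tested lower, Mag and Opalin at 0), precursor markers at 3.17 to 13.2 against 104 to 116 CPM (2 of 4 lower, Olig2 at 0), microglial markers at 0.414 to 36.8 against 188 to 235 CPM (2 of 5 tested lower, C1qa at 0) and vascular markers at 0.489 to 2.03 against 153 to 172 CPM (5 of 5 tested lower, Cldn5 at 0). Each difference between pools and bulk tissue reported here runs beside this loss of other cell types, whose part in it was not tested, and in bulk tissue fewer cells of a type and less RNA per cell cannot be told apart.

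Of the 87 members, 79 had at least 20 CPM in total and were tested. The Arc-dVenus+ pools held more RNA of 12 members, among them the synapsins, Sv2b, Syp, Snap25, Syt1, Syt5, Stxbp5, Unc13a and the clathrin adaptor Snap91, beside 6.17% of all tested genes called higher. Of these, Syn1, Syn3, Syt5, Snap25 and Sv2b were past 2-fold (3.13% of all genes). The 4 members called lower, Unc13c, Syt15, Stxbp4 and Syt12, stood beside 6.85% of all genes, and the first 3 of them were past 2-fold (6.58% of all genes). The median log2 fold change over the 79 tested members was 0.06, beside 0.10 over all tested genes. In CPM, every pool was above every bulk library for 12 members (5.97% of all genes) and below every bulk library for 17 (21.4% of all genes).

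The call depended on the bulk libraries and on the scaling. Without any 1 of the 3 bulk libraries the count of members called higher fell to 5 (FC bulk tissue), 4 (shock-only bulk replicate 1) or 5 (shock-only bulk replicate 2), and that of members called lower to 0, 1 and 1. Scaled by library size alone, 4 were higher and 5 lower, and scaled by the median of 20 pan-neuronal genes that are no members, 4 were higher and 9 lower, with Rims1, Rims2, Stxbp2, Syt11 and Rab33b added to the 4. Syn1, Syn3, Sv2b and Snap25 were called higher in each of these fits, and the other 8 lost their call without at least 1 of the bulk libraries. With pan-neuronal scaling the log2 fold changes of several were near 0, at 0.02 for Syt1, 0.0047 for Syp, 0.15 for Snap91, 0.21 for Stxbp5, 0.22 for Unc13a and 0.25 for Syn2.

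**Figure D1:**
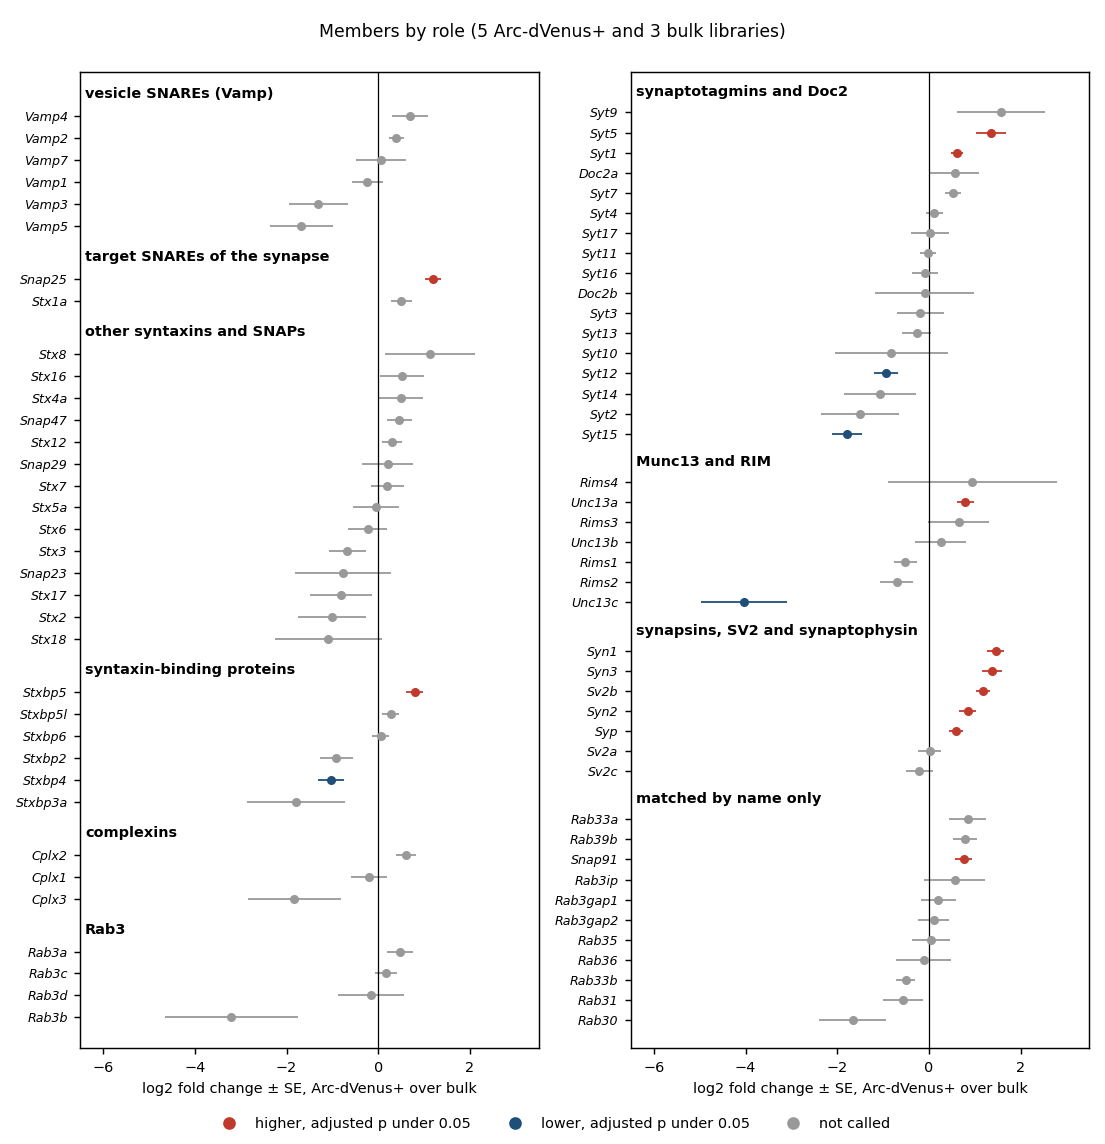
Log2 fold change of 77 tested members in 5 Arc-dVenus+ over 3 bulk libraries (x axis, bars are the standard error), grouped by role and colored by call. The 11 members drawn as called higher lie between 0.59 and 1.45, 5 of them among the synapsins, SV2 and synaptophysin, and Unc13c lies lowest at -4.04.

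The synapsins, which tether vesicles to one another and to the cytoskeleton, were all 3 called higher. At the mean levels of Syn1, Syn2 and Syn3, 60.6%, 36.6% and 9.43% of all genes were called higher. The call on Syn2 was lost without any 1 bulk library, by library size alone and with pan-neuronal scaling. Syn1, the most abundant synapsin (chrX:20437637-20498130, mm9), was at 1072, 1293 and 1330 CPM in the FC pools, 1216 and 802 CPM in the shock-only pools, 498 CPM in FC bulk tissue and 467 and 529 CPM in shock-only bulk tissue. Every pool was above every bulk library, the lowest being shock-only pool 2, and the log2 fold change was 1.45 ± 0.18 (SE, adjusted p = 0.000506), or 2.74-fold. Syn3 (chr10:85517870-85961641), a minor synapsin, was at 297, 215 and 286 CPM in the FC pools, 272 and 164 CPM in the shock-only pools, 109 CPM in FC bulk tissue and 111 and 122 CPM in shock-only bulk tissue. The groups did not overlap and the log2 fold change was 1.37 ± 0.22 (SE, adjusted p = 0.00242). Syn2 was at 409, 277 and 324 CPM in the FC pools, 431 and 424 CPM in the shock-only pools, 269.6 CPM in FC bulk tissue and 259 and 218 CPM in shock-only bulk tissue. Here FC pool 2 lay only just above FC bulk tissue, and the log2 fold change of 0.84 ± 0.19 (SE, adjusted p = 0.0147) was smaller than that of Syn1 or Syn3. Exons of Syn1 and Syn3 overlap genes on the other strand (Araf and Timp3) in the mouse annotation, and whether counting used strand is not given in the sources used here.

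Among the vesicle membrane proteins, Sv2b rose and its paralogs did not pass the test. SV2 proteins are transporter-like glycoproteins of the vesicle that bind synaptotagmin. Sv2b (chr7:82259783-82454148), the form typical of excitatory cortical neurons, was at 1484, 1611 and 1536 CPM in the FC pools, 2085 and 1692 CPM in the shock-only pools, 854 CPM in FC bulk tissue and 901 and 913 CPM in shock-only bulk tissue. All 5 pools were above all bulk libraries by a wide margin, with a log2 fold change of 1.18 ± 0.15 (SE, adjusted p = 0.000562). Sv2a, the widely expressed paralog and the target of the drug levetiracetam, was at 204, 122.8 and 275 CPM in the FC pools, 200.2 and 143 CPM in the shock-only pools, 230.4 CPM in FC bulk tissue and 225 and 214 CPM in shock-only bulk tissue, with a log2 fold change of 0.02 ± 0.25 (SE, adjusted p = 0.979). FC pool 3 was above and the other 4 pools below the bulk libraries. Sv2c, with a log2 fold change of -0.21, was below bulk tissue in CPM in all 5 pools and did not pass the test. Synaptophysin (Syp), the major cholesterol-binding membrane protein of the vesicle, was at 1365, 1182 and 1303 CPM in the FC pools, 1704 and 1214 CPM in the shock-only pools, 1017 CPM in FC bulk tissue and 1020 and 1179 CPM in shock-only bulk tissue. The lowest pool, FC pool 2, exceeded the highest bulk library by very little, and the log2 fold change was 0.59 ± 0.15 (SE, adjusted p = 0.0272).

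**Figure D2:**
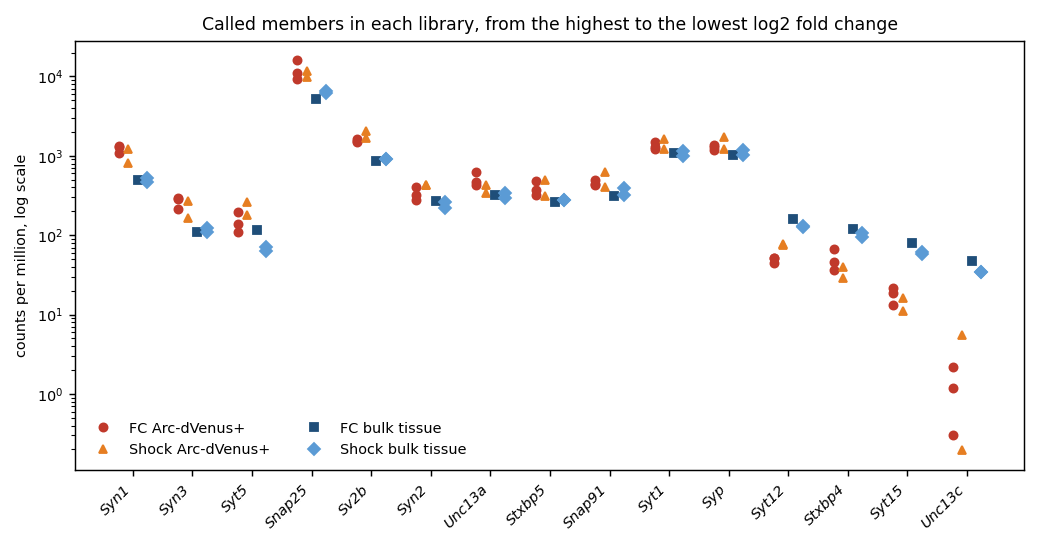
Level in CPM on a log axis for 15 called members in each of the 8 libraries, ordered by log2 fold change (circles and triangles are FC and shock-only pools, squares and diamonds FC and shock-only bulk tissue). Pools and bulk tissue separate for 14 of the 15, and for Syt5 the FC bulk library lies among the pools. The members were called in these same libraries, so their separation is no further support.

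The target SNARE Snap25 was the most abundant member in every library. Snap25 (chr2:136539189-136608164), a plasma membrane SNARE anchored by lipid tails, was at 11189, 16011 and 9271 CPM in the FC pools, 11655 and 9774 CPM in the shock-only pools, 5184 CPM in FC bulk tissue and 6204 and 6635 CPM in shock-only bulk tissue. FC pool 2 stood highest and all pools were above all bulk libraries, with a log2 fold change of 1.20 ± 0.18 (SE, adjusted p = 0.00138), or 2.30-fold. Stx1a, a plasma membrane syntaxin of the synapse, was not called. It was at 107, 97.6 and 130.1 CPM in the FC pools, 172 and 129 CPM in the shock-only pools, 110.3 CPM in FC bulk tissue and 98.8 and 113 CPM in shock-only bulk tissue, with a log2 fold change of 0.51 ± 0.24 (SE, adjusted p = 0.216). FC pool 2 alone was below the lowest bulk library.

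The 71 members left without those matched by name summed to 24326 to 32322 CPM in the pools and 18564 to 20099 CPM in bulk tissue. Without Snap25, the sum of the other 70 was 14551 to 16793 CPM against 13100 to 13465 CPM. Snap25 alone thus carried most of the gap between the sums. Per kilobase of exon, Snap25 was at 1705 ± 392.3 CPM per kb in the pools (SD, n = 5) and 885 ± 109.7 in bulk tissue (SD, n = 3), far above the other members named here. In the pools Syn1 was at 346 ± 65.0, Cplx2 at 322 ± 102, Sv2b at 295 ± 41.9, Syp at 259.7 ± 40.1 and Vamp2 at 240.5 ± 42.5 CPM per kb (SD, n = 5), whose neighbors in this order did not differ beyond their spread. In bulk tissue the order of these was Cplx2 (253 ± 25.8), Vamp2 (218 ± 7.76), Syp (206 ± 17.8), Sv2b (156 ± 5.49) and Syn1 (151 ± 9.34 CPM per kb, SD, n = 3), so that Syn1, last of these 5 in bulk tissue, stood first in the pools.

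Of the vesicle SNAREs, 0 of 6 tested VAMPs were called by edgeR's quasi-likelihood test (2 at an unadjusted p under 0.05, median log2 fold change -0.09). Vamp2, the VAMP of fast transmitter release, was at 1002, 802 and 1108 CPM in the FC pools, 964 and 703 CPM in the shock-only pools, 859 CPM in FC bulk tissue and 836 and 801 CPM in shock-only bulk tissue. Pools lay on both sides of the bulk libraries, with a log2 fold change of 0.40 ± 0.16 (SE, adjusted p = 0.14). Vamp4, a VAMP of endosomes, was at a log2 fold change of 0.69, Vamp7 of lysosomal traffic at 0.06, Vamp1 of fast brainstem and spinal synapses at -0.24, Vamp3 of constitutive traffic at -1.31 and Vamp5, best known from muscle, at -1.68. Vamp3 was low in 4 pools, at 4.70 to 12.4 CPM, and at 44.9 CPM in FC pool 1. Without FC pool 1, Vamp3 was called lower, and Vamp2 was called higher by DESeq2 and, in edgeR, without shock-only pool 2.

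The other 14 syntaxins and SNAPs, which serve endosomes, the Golgi and the plasma membrane outside the synapse, gave 0 calls and a median of 0.07, with log2 fold changes from -1.09 (Stx18, of the endoplasmic reticulum) to 1.13 (Stx8, of late endosomes). At an unadjusted p under 0.05 the count was also 0. Snap23, the widely expressed relative of Snap25, was at 11.1 ± 7.89 CPM (SD, n = 5) against 22.6 ± 4.62 CPM (SD, n = 3), below bulk tissue in all 5 pools, and its log2 fold change of -0.77 ± 1.05 (SE, adjusted p = 0.738) carried a wide error. Stx3, used at dendritic membranes, was at a log2 fold change of -0.67, and Snap29 and Snap47, of intracellular fusion, at 0.21 and 0.46.

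Among the syntaxin-binding proteins, Stxbp5 rose and Stxbp4 fell. Stxbp5 (tomosyn), which binds syntaxin and SNAP-25 in place of a VAMP and restrains release, was at 394 ± 85.2 CPM (SD, n = 5) against 271 ± 7.89 CPM (SD, n = 3), with a log2 fold change of 0.79 ± 0.18 (SE, adjusted p = 0.0165). Its paralog Stxbp5l was at 0.28. Stxbp4 (chr11:90337806-90499398), known as a syntaxin 4 binding protein of fat and muscle cells, was at 37.0, 67.6 and 46.4 CPM in the FC pools, 39.9 and 28.8 CPM in the shock-only pools, 119 CPM in FC bulk tissue and 108 and 95.1 CPM in shock-only bulk tissue. Every pool was below every bulk library, and the log2 fold change was -1.03 ± 0.29 (SE, adjusted p = 0.0421). The call on Stxbp4 was lost without FC pool 1, FC pool 3, shock-only pool 1 or any 1 bulk library (adjusted p from 0.0567 to 0.202). Stxbp2 and Stxbp3a, forms of blood cells and other tissues, were at -0.92 and -1.79, below all bulk libraries in all 5 pools, without passing the test. Stxbp6 (amisyn) was at 0.06.

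Among the calcium sensors, 17 of 18 synaptotagmins and Doc2 genes were tested, and 2 rose and 2 fell (median -0.09). Syt1, the sensor of fast synchronous release in forebrain neurons, was at 1490, 1215 and 1301 CPM in the FC pools, 1628 and 1207 CPM in the shock-only pools, 1072 CPM in FC bulk tissue and 1134 and 1004 CPM in shock-only bulk tissue. The pools all exceeded the bulk libraries, with a log2 fold change of 0.61 ± 0.14 (SE, adjusted p = 0.0137). Syt5 (chr7:4491370-4498169), a close relative of Syt1, was at 137, 197 and 109 CPM in the FC pools, 263 and 179 CPM in the shock-only pools, 115 CPM in FC bulk tissue and 63.0 and 71.6 CPM in shock-only bulk tissue. The FC bulk library lay above FC pool 3, so the groups overlapped, and the log2 fold change was 1.35 ± 0.33 (SE, adjusted p = 0.0226). Without shock-only bulk replicate 1 or 2 the call on Syt5 was lost, at an adjusted p of 0.133 or 0.12 in edgeR's quasi-likelihood test. Syt7, the sensor of asynchronous release and of facilitation, was at 339, 347 and 354 CPM in the FC pools, 479.8 and 435 CPM in the shock-only pools, 332 CPM in FC bulk tissue and 312 and 331 CPM in shock-only bulk tissue. All 5 pools were above all 3 bulk libraries, FC pool 1 by a small margin, but the log2 fold change of 0.53 ± 0.17 (SE, adjusted p = 0.0753) missed the threshold. DESeq2 called Syt7 higher, as did edgeR with no filter, with condition as a covariate or without shock-only pool 1.

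Syt15 and Syt12, which do not bind calcium, fell. Syt15 (chr14:35032781-35043607) was at 21.4, 13.1 and 18.9 CPM in the FC pools, 11.1 and 16.1 CPM in the shock-only pools, 79.2 CPM in FC bulk tissue and 60.9 and 58.6 CPM in shock-only bulk tissue. The pools were all far below bulk tissue, with a log2 fold change of -1.79 ± 0.33 (SE, adjusted p = 0.00468), and the call was lost without FC bulk tissue (adjusted p = 0.0535). Syt12 was at 60.4 ± 15.2 CPM (SD, n = 5) against 139 ± 18.7 CPM (SD, n = 3), with a log2 fold change of -0.94 ± 0.26 (SE, adjusted p = 0.0369). That call was lost without any 1 of the FC pools or of the bulk libraries (adjusted p from 0.0601 to 0.205).

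The remaining tested synaptotagmins were not called. Syt4 and Syt11, which lack calcium binding in one of their domains, were abundant, at log2 fold changes of 0.11 and -0.02. Syt3, Syt13, Syt16 and Syt17 lay between -0.27 and 0.02, Syt10 and Syt14 at -0.82 and -1.06, and Syt9 at 1.57 with an SE of 0.96. Syt2, the fast sensor of brainstem synapses and of parvalbumin interneurons, was at 1.86 to 2.53 CPM in 4 pools and 17.6 CPM in FC pool 2, against 17.9 ± 3.70 CPM (SD, n = 3) in bulk tissue. Without FC pool 2, Syt2 was called lower. Doc2a, a high-affinity sensor of spontaneous release, was at 49.0, 15.1 and 9.51 CPM in the FC pools, 17.0 and 23.9 CPM in the shock-only pools, 19.4 CPM in FC bulk tissue and 16.5 and 19.3 CPM in shock-only bulk tissue. FC pool 1 was high and FC pool 3 low, and the log2 fold change was 0.56 ± 0.54 (SE, adjusted p = 0.609).

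By edgeR's quasi-likelihood test 0 of 3 complexins were called (1 at an unadjusted p under 0.05), while Cplx2 was called higher by DESeq2 and, in edgeR, without shock-only pool 1. Cplx2, the complexin of cortical principal cells, was at 1390, 2453 and 1500 CPM in the FC pools, 1147 and 1448 CPM in the shock-only pools, 1197 CPM in FC bulk tissue and 1154 and 1392 CPM in shock-only bulk tissue. FC pool 2 stood far above the other pools, shock-only pool 1 was below all bulk libraries, and the log2 fold change was 0.60 ± 0.22 (SE, adjusted p = 0.108). Cplx1, the complexin of interneurons and of hindbrain, was at 50.4, 141 and 115 CPM in the FC pools, 136 and 238 CPM in the shock-only pools, 169 CPM in FC bulk tissue and 200 and 197 CPM in shock-only bulk tissue. FC pool 1 was lowest and shock-only pool 2 highest of all libraries, with a log2 fold change of -0.20 ± 0.39 (SE, adjusted p = 0.816). Cplx3, of retinal and subplate neurons, was low throughout, at 1.17 ± 1.37 CPM (SD, n = 5) against 4.98 ± 1.84 CPM (SD, n = 3).

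Of the 7 tested genes of Munc13 and RIM, 1 rose and 1 fell. Unc13a (Munc13-1), the main priming factor of excitatory terminals, was at 623, 431 and 469 CPM in the FC pools, 344 and 434 CPM in the shock-only pools, 317 CPM in FC bulk tissue and 292 and 336 CPM in shock-only bulk tissue. The lowest pool, shock-only pool 1, was above the highest bulk library, with a log2 fold change of 0.80 ± 0.18 (SE, adjusted p = 0.0141). Unc13c (Munc13-3; chr9:73328677-73781374), best known from the cerebellum, was at 1.17, 0.3 and 2.17 CPM in the FC pools, 5.59 and 0.196 CPM in the shock-only pools, 47.0 CPM in FC bulk tissue and 34.5 and 34.2 CPM in shock-only bulk tissue. All pools were far below all bulk libraries, shock-only pool 1 least so, with a log2 fold change of -4.04 ± 0.94 (SE, adjusted p = 0.0168). The call on Unc13c was lost without any 1 bulk library, at adjusted p of 0.0557 to 0.0809. Unc13b (Munc13-2) was at 0.26 with an SE of 0.56. Rims1, a scaffold that ties vesicles to calcium channels, was at 127, 111 and 74.8 CPM in the FC pools, 78.5 and 63.2 CPM in the shock-only pools, 187 CPM in FC bulk tissue and 130.5 and 146 CPM in shock-only bulk tissue. All pools were below all bulk libraries in CPM, FC pool 1 by little, and the log2 fold change of -0.51 ± 0.25 (SE, adjusted p = 0.25) did not pass the test. Rims2 was at -0.71, and the short RIMs Rims3 and Rims4 at 0.65 and 0.95. The value of Rims4 had an SE of 1.84 and rested on FC pool 1, at 15.3 CPM. The other 4 pools, at 0 to 0.414 CPM, were below every bulk library (1.49 to 2.23 CPM).

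Of the 4 Rab3 GTPases, which mark vesicles bound for the active zone, 0 were called by edgeR's quasi-likelihood test and 0 had an unadjusted p under 0.05. Rab3a, the main neuronal form, was at 309, 209 and 458 CPM in the FC pools, 354 and 182 CPM in the shock-only pools, 271 CPM in FC bulk tissue and 253 and 253 CPM in shock-only bulk tissue. The pools spread from below to above the bulk libraries, with a log2 fold change of 0.48 ± 0.28 (SE, adjusted p = 0.347). Rab3c and Rab3d were at 0.17 and -0.16. Rab3b, at 4.46, 0.225 and 0 CPM in the FC pools, 0.0414 and 5.87 CPM in the shock-only pools, 28.3 CPM in FC bulk tissue and 19.2 and 21.5 CPM in shock-only bulk tissue, was below all bulk libraries in all 5 pools, with a log2 fold change of -3.21 ± 1.45 (SE, adjusted p = 0.204), and limma voom called it lower.

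The order of the paralogs inside a family was compared as the log2 ratio of their CPM (with 0.5 CPM added to each), in which library scaling cancels. Pairs were compared by an exact two-sided permutation test of 5 pools against 3 bulk libraries, whose smallest possible p is 0.0179, with adjustment over 27 pairs. Of the 25 pairs described, 6 had a p under 0.05 and 0 passed after adjustment. Over 27 pairs, even a pair at the smallest possible p could pass only if many others reached it too. The 0 is thus largely set by the number of libraries and is not read as a lack of difference. The groups did not overlap in 8 of the 25, and in each of these the ratio was higher in the pools. In all 8 the paralog written first was also the more abundant. Over all tested genes the median log2 fold change likewise climbed with level, from -0.54 under 10 CPM to 0.69 at 500 CPM or more. Level here is the mean over all libraries, pools included, so a gene's own fold change helps set it. No pairs of other genes were compared, so the shared direction is not read as particular to these families. Unc13a over Unc13c was at 8.04 ± 1.43 (SD, n = 5) in the Arc-dVenus+ pools and 3.03 ± 0.27 (SD, n = 3) in bulk tissue, a difference of 5.01 (exact permutation test, p = 0.0179, adjusted p = 0.121). The log2 ratios of Unc13a over Unc13c were 8.54, 9.07 and 7.46 in the FC pools, 5.82 and 9.29 in the shock-only pools and 2.74 to 3.28 in bulk tissue, and no pool came near a bulk library.

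Sv2b over Sv2c was at 4.64 ± 0.68 (SD, n = 5) in the Arc-dVenus+ pools and 3.21 ± 0.09 (SD, n = 3) in bulk tissue, a difference of 1.43 (exact permutation test, p = 0.0179, adjusted p = 0.121). Sv2b over Sv2a was at 3.20 ± 0.51 (SD, n = 5) in the Arc-dVenus+ pools and 1.99 ± 0.10 (SD, n = 3) in bulk tissue, a difference of 1.21 (exact permutation test, p = 0.0357, adjusted p = 0.138). Per kilobase of exon, Sv2b made up 83.7% ± 3.83 of SV2 in the pools (SD, n = 5) and 69.0% ± 1.03 in bulk tissue (SD, n = 3), and Sv2a 11.7% ± 3.84 against 21.3% ± 1.19. In the same measure Unc13a made up 91.1% ± 6.30 against 77.6% ± 2.11 of Munc13, and Unc13c 0.557% ± 0.749 against 12.3% ± 2.03.

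Cplx2 over Cplx3 was at 10.14 ± 0.94 (SD, n = 5) in the Arc-dVenus+ pools and 7.88 ± 0.33 (SD, n = 3) in bulk tissue, a difference of 2.26 (exact permutation test, p = 0.0179, adjusted p = 0.121). The other pairs without overlap were Rab3a over Rab3b (a log2 difference of 4.15), Snap25 over Snap23 (2.65), Vamp2 over Vamp3 (2.07) and Vamp2 over Vamp1 (0.69). As in all 8, the second paralog was the less abundant in these 4. The SD of the log2 ratio in the pools was 2.16 for Rab3a over Rab3b and 2.16 for Snap25 over Snap23. It was 1.01 for Vamp2 over Vamp3 and 0.52 for Vamp2 over Vamp1 (n = 5). The 17 pairs with overlap had log2 differences from -0.94 (Rims1 over Rims3) to 2.55 (Syt1 over Syt2), with Syt1 over Syt7 nearest to 0 at 0.09.

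**Figure D3:**
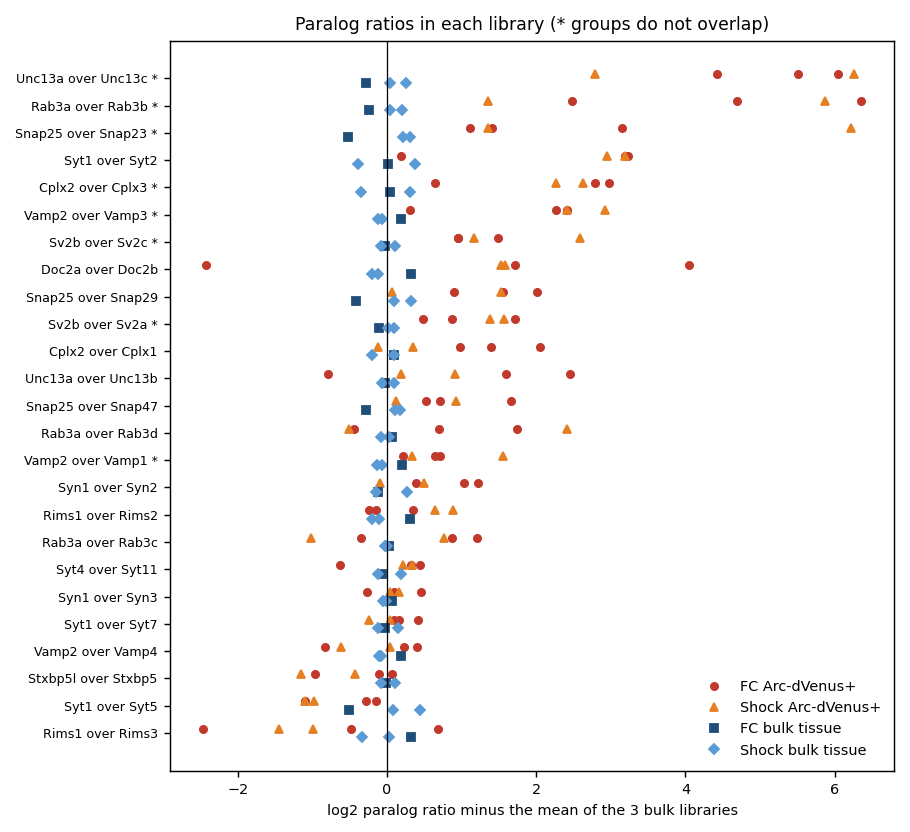
Log2 ratio of each of 25 paralog pairs in each library, drawn as the distance from the mean of the 3 bulk libraries (x axis), with symbols as for the called members and a star where pools and bulk tissue do not overlap. The 8 starred pairs lie to the right, and Unc13a over Unc13c lies farthest, 5.01 above bulk tissue in the mean.

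The members called higher were the abundant ones. Among the 10 members with a mean of 500 CPM or more over the 8 libraries, 6 were called higher, beside 60.6% of all genes at that level. At 200 to 500 CPM it was 4 of 10 members beside 36.6% of all genes, at 50 to 200 CPM 2 of 23 beside 9.43%, and under 50 CPM 0 of 36 beside 0.476%. At each level the members' share was thus near that of other genes, and the larger share over all 79 members went with their higher levels. The 4 members called lower were all under 200 CPM, as were 59 of the 79 tested members. Among all genes, the share called lower was 5.91% to 7.59% in the classes under 200 CPM. It was 7.81% at 200 to 500 CPM and 8.92% at 500 CPM or more. These level classes were chosen after the values had been seen.

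**Figure D4:**
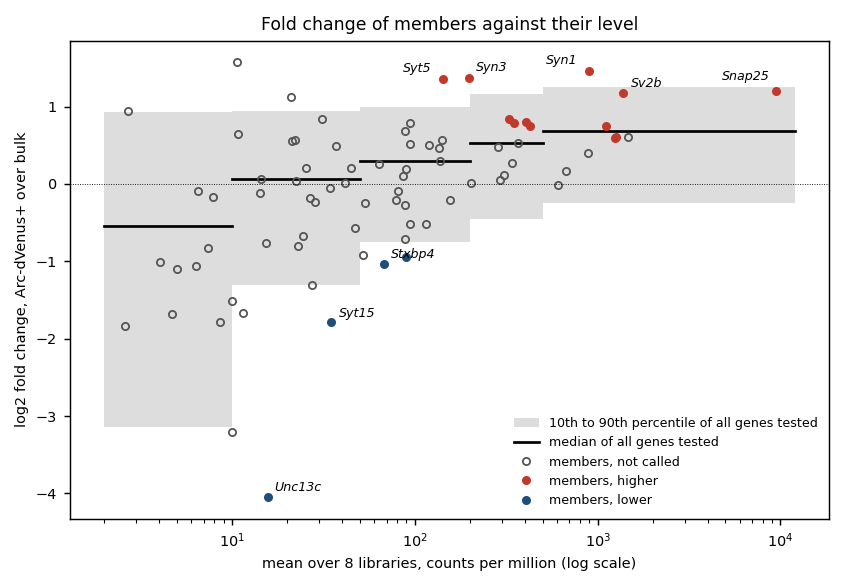
Log2 fold change (y axis) against the mean level over the 8 libraries (x axis, log scale) for the 79 tested members, over the median and the 10th to 90th percentile of all tested genes in 5 level classes. The median of all genes climbs from -0.54 under 10 CPM to 0.69 at 500 CPM or more, and most members follow it. The level includes the pools, so it is not independent of the fold change.

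The promoters of 4 called members show the regulatory sequence beside these values. Syn1 and Sv2b were the called members with the lowest p, and Unc13a and Unc13c are paralogs called in opposite directions. For each, the 250 bases before the start of transcription are printed 5′ to 3′ on the strand of the gene, from RefSeq on GRCm38.p6, a later build than the mm9 of the counts. They lie at chrX:20920919-20921168 (Syn1), chr7:75309263-75309512 (Sv2b, the first of 4 listed starts), chr8:71671758-71672007 (Unc13a) and chr9:73969038-73969287 (Unc13c), all on the minus strand. Capitals mark the cAMP response element TGACGTCA and its core TGACG on either strand, the site of CREB, a factor through which neuronal activity drives genes such as Arc.
Syn1: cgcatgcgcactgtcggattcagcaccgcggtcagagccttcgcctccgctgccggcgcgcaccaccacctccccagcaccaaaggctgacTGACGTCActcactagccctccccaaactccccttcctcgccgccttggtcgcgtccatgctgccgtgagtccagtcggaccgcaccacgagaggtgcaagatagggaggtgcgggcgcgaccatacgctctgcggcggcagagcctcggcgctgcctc
Sv2b: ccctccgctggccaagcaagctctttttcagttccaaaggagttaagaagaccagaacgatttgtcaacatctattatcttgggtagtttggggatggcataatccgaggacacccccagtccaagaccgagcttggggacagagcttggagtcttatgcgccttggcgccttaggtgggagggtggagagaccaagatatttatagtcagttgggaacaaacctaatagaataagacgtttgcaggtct
Unc13a: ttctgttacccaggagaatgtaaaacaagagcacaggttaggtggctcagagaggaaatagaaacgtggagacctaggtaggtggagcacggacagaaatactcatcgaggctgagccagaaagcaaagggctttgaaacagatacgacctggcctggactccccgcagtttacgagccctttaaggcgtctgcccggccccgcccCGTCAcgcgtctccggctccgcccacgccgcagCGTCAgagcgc
Unc13c: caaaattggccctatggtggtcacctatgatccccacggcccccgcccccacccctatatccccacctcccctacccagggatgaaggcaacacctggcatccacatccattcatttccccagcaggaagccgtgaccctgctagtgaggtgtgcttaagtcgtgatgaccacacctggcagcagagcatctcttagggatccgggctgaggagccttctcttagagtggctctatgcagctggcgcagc

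The full element TGACGTCA stood in 508 of 32851 promoters of this length (1.55%). Among the 84 promoters of the 65 members found in the table, it was in 1 (1.19%), that of Syn1. The core TGACG, which the full element contains, was in 17 of the 84 (20.2%) and 17.8% of all promoters. The AP-1 site TGANTCA, bound by Fos and Jun, was in 2 of the 84 (2.38%), those of Rab34 and Syt2, and 6.75% of all promoters. A match of letters is a description and no site of binding.

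The 8 members under the filter were read from a fit to all 15437 genes, in which 10.5% were called lower. Syt6 gave 1 count in the 5 pools together, in FC pool 1, and 7.71 CPM in FC bulk tissue and 4.16 and 5.63 CPM in shock-only bulk tissue. The ratio of bulk tissue to pools was 409 (95% counting interval 72.2 to 16274, adjusted p = 0.00301). Vamp8, a VAMP of secretory cells, likewise gave 1 count, in shock-only pool 2, against 4.74, 5.59 and 6.05 CPM in bulk tissue, a ratio of 394 (69.6 to 15689, adjusted p = 0.00491). Both were thus all but missing from every pool and present in every bulk library.

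Rab32 and Rab37 gave 0 counts in all 5 pools, which allows up to 0.0346 CPM, and were at 0.508 to 1.97 and 0.812 to 2.25 CPM in bulk tissue, each at least 29.6-fold lower in the pools (3 counts over the 5 pools, adjusted p = 0.0138 and 0.0135). Rab34 was at 0.294, 0.225 and 0.543 CPM in the FC pools, 0 and 0 CPM in the shock-only pools, 4.602 CPM in FC bulk tissue and 3.35 and 3.80 CPM in shock-only bulk tissue. Rab39 was at 0.117, 0.676 and 1.27 CPM in the FC pools, 0 and 0 CPM in the shock-only pools, 1.89 CPM in FC bulk tissue and 1.93 and 1.97 CPM in shock-only bulk tissue. For both, all pools were below all bulk libraries, but neither was called (adjusted p = 0.0745 and 0.464). Unc13d, the Munc13 of blood cells, was at 0, 0 and 1.13 CPM in the FC pools, 1.04 and 0.0978 CPM in the shock-only pools, 0.406 CPM in FC bulk tissue and 0.203 and 0.703 CPM in shock-only bulk tissue. Rab3il1 was at 0.0587, 0 and 0.226 CPM in the FC pools, 8.36 and 0 CPM in the shock-only pools, 2.30 CPM in FC bulk tissue and 3.55 and 2.95 CPM in shock-only bulk tissue. Unc13d and Rab3il1 were not called, and nearly all counts of Rab3il1 in the pools came from shock-only pool 1.

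Of the 11 tested genes matched by name alone, 1 rose. Snap91 (AP180), which sizes clathrin coats as vesicle membrane is retrieved, was at 499, 439 and 432 CPM in the FC pools, 617 and 404 CPM in the shock-only pools, 314 CPM in FC bulk tissue and 388 and 317 CPM in shock-only bulk tissue. All pools were above all bulk libraries, with a log2 fold change of 0.75 ± 0.18 (SE, adjusted p = 0.0193). Rab33a and Rab39b, brain-enriched GTPases, were at 0.84 and 0.79, the Rab3 regulators Rab3gap1, Rab3gap2 and Rab3ip at 0.20, 0.11 and 0.56, and Rab30, Rab31, Rab33b, Rab35 and Rab36 between -1.67 and 0.04, with 0 called by edgeR's quasi-likelihood test. DESeq2 called Rab39b higher, as did edgeR with no filter, without shock-only pool 1 or without shock-only pool 2. Limma voom called Rab30 lower, as did edgeR without shock-only pool 2. Rab33b was called lower by library size alone and with pan-neuronal scaling.

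Lists of genes that act around fusion were described in the same way, beside the 6.17% of all tested genes called higher and 6.85% lower. Of 17 genes of SNARE recycling and the active zone, 7 rose and 0 fell (median 0.44), with the largest changes in the scaffolds Bsn (1.51) and Pclo (1.49) and in Erc2 (1.13). Of 16 other vesicle proteins, 7 rose and 1 fell (median 0.55). The vesicular glutamate transporter Slc17a7 (1.06) and the proton pump subunit Atp6v1a (1.20) rose, and the vesicular GABA transporter Slc32a1, with 2 counts in all pools together, was the one that fell. Of 21 genes of vesicle endocytosis, 7 rose and 0 fell (median 0.58), among them Ap2b1 (1.16) and Synj1 (0.97). Of 3 tested extended and synaptotagmin-like proteins, 0 were called by edgeR (2 at an unadjusted p under 0.05), with a median of -0.76. Among the 54 genes of the first 3 lists, 12 of 12 with a mean of 500 CPM or more were called higher (60.6% of all genes at that level), 7 of 14 at 200 to 500 CPM (36.6%), 2 of 18 at 50 to 200 CPM (9.43%) and 0 of 10 under 50 CPM (0.476%). The 20 pan-neuronal genes used for scaling had a median of 0.58, with 10 higher and 1 lower.

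Within the Arc-dVenus+ pools, FC was compared with shock alone to ask whether the tone pairing changed these genes. Of 71 members tested among 10798 genes, 0 were called by edgeR's quasi-likelihood test, as for all genes (0.0%). At an unadjusted p under 0.05 there was 1 member, Rims2, with a log2 difference of 1.29 ± 0.43 (SE, adjusted p = 0.812), and 657 genes in all. DESeq2 called 96 genes and edgeR's exact test 8, with 0 members among them. The members' log2 differences ran from -2.81 to 2.10 with a median of 0.06, and 61 of the 71 were within 1. With 3 against 2 pools these errors are wide: for Syn1 the log2 difference was 0.25 ± 0.24, for Snap25 0.14 ± 0.22 and for Sv2b -0.33 ± 0.18 (SE). The test of whether the gap between pools and bulk tissue differed with the condition called 0 of 79 members and 0.0% of 12493 genes, with 3 members and 308 genes at an unadjusted p under 0.05 and 11 genes but 0 members called by DESeq2. FC bulk tissue is 1 library, so this test assumes that it varies like the others.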

How the data were processed

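Raw read counts per gene, deposited by the authors, were used here for 8 libraries. By the study's methods they come from unique RUM alignments to mm9, with 1 transcript variant counted per gene. CPM was computed here from these counts. The authors' CPM, fold change and p-value columns and their subset sheets were not used. Amplification (Ovation RNA-Seq) preceded library preparation, so counts are not independent molecules, and intervals and floors cover counting error only.

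Members were found by symbol. Members and lists were chosen with earlier results of these data known. Values in every library were given for members called past 2-fold, for written synaptic paralogs and for members under the filter. Others named were given by fold change. Some members are not reported here singly, but counts over all members include them.

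Arc-dVenus+ and bulk libraries (5 against 3), FC and shock-only pools (3 against 2) and the interaction were tested with edgeR 4.0.16 (quasi-likelihood, TMM factors 0.90 to 0.97 in pools and 1.10 to 1.13 in bulk tissue, Benjamini-Hochberg) in R 4.3.3, on genes with at least 20 CPM in total. Paralog ratios were tested in scipy 1.17.1. The tests were tested on simulated data first. Alternatives used DESeq2 1.42.0, limma 3.58.1, other scalings and filters, and each library left out in turn. By the study's text and the labelled protocol, pools were made per animal and bulk samples came from single mice, so p-values cover the spread between these samples. Positions and exon lengths (all exons joined) are from GENCODE M1 on mm9 for 86 of 87 members, and 21 members overlap an exon of a gene on the other strand, among them the called Syn1, Syn3, Sv2b, Syp and Syt12. If counting ignored strand, reads of such partners cannot be told apart. Figures were drawn with matplotlib 3.10.9.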

Additional observations from a re-analysis of the deposited data

Results flagged for a closer look

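Within the 5 Arc-dVenus+ pools, 10 of the 87 members had 1 pool far from the other 4, by a test of the gap to the nearest pool. For normally distributed values this test picks out about 1 in 20 groups by chance. CPM values with zeros and single counts need not keep to that rate. The share of all genes that the test picks out in these pools is not given, so the count is not read as an excess. Cplx2 stood at 2453 CPM in FC pool 2 against 1147 to 1500 CPM in the other pools. Stxbp6 stood at 378 CPM in shock-only pool 2 against 232 to 266 CPM. Vamp3 was at 44.9 CPM in FC pool 1 against 4.70 to 12.4 CPM, which is the level of bulk tissue (46.4 CPM). Syt2 was at 17.6 CPM in FC pool 2 against 1.86 to 2.53 CPM, again the level of bulk tissue (17.9 CPM). Doc2b was at 22.1 CPM in FC pool 3 against 0.764 to 2.93 CPM, and Rims4 at 15.3 CPM in FC pool 1 against 0 to 0.414 CPM. Rab3il1 was at 8.36 CPM in shock-only pool 1 against 0 to 0.226 CPM, and Cplx3 at 3.58 CPM in FC pool 3 against 0.29 to 0.826 CPM. The values of Syt6 (0.0587 CPM in FC pool 1) and Vamp8 (0.0978 CPM in shock-only pool 2) each rest on 1 count. With the other 4 pools at 0, any single count is picked out by this test. The pools that stood apart differed from gene to gene.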

How the results depend on the processing

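Over the alternatives, the 16 called members had the same sign in every fit that held them, but with pan-neuronal scaling Syp and Syt1 came to 0.0047 and 0.02 (log2), and the counts of calls moved. Members called higher, 12, came to 4 by library size alone, 4 with pan-neuronal scaling, 0 in the shock-only libraries alone and 4 to 15 with 1 library left out. Members called lower, 4, came to 9 with pan-neuronal scaling, 0 in the shock-only libraries alone and 0 to 6 with 1 library left out. Members higher past 2-fold, 5, came to 2, 0 and 0 by library size, pan-neuronal scaling and shock-only libraries, and to 4 to 5 with 1 library left out. Members lower past 2-fold, 3, came to 8 with pan-neuronal scaling, 5 by limma voom, 0 in the shock-only libraries alone and 0 to 5 with 1 library left out. The causes were not tested, and the fits of the shock-only libraries alone or with 1 library left out also hold fewer samples. Syn1, Syn3, Sv2b and Snap25 were called higher in every fit but that of the shock-only libraries alone (2 against 2). DESeq2 called 16 members higher and 4 lower.

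Scaling shifts all genes: the median log2 fold change of all tested genes was 0.10 with TMM, -0.16 by library size alone, 0.15 with DESeq2 size factors and -0.49 with pan-neuronal scaling, and that of members 0.06, -0.19, 0.11 and -0.53. With these shifts, 23 uncalled members changed sign with pan-neuronal scaling and 12 by library size alone, so no direction is claimed for members that were not called. Over all genes, 771 were higher and 856 lower, against 364 and 1084 by library size alone, 132 and 1628 with pan-neuronal scaling, 1311 and 1055 by DESeq2 and 495 and 1258 by limma voom. Calls of members between FC and shock-only pools and for the interaction were 0 under each alternative run. With so few libraries the 0 calls of paralog pairs say nothing of stability. No paired analysis was possible because the numbers in the titles count cells and pair no samples across groups. Depth limits Rab32 and Rab37, at 0 counts in the pools, and Syt6 and Vamp8, at 1 count.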
